A study of Homo sapiens with 12 samples.

Results

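The replication-dependent histone genes were followed across 12 RNA sequencing libraries of 2 established lines of uterine leiomyosarcoma (uLMS), a smooth muscle cancer. They were taken as the rows of the count table named H1-1 to H1-6 or named H2AC, H2BC, H3C or H4C with a number, and kept with at least 50 counts summed over the libraries. Of 66 such rows among 60649 in the table, 59 were kept, namely 6 H1, 14 H2A, 16 H2B, 12 H3 and 11 H4 genes, and all 59 were among the 21114 genes tested. H2AC1, H2BC1 and H4C7 had 0 counts in every library, and H2AC7, H3C4, H4C14 and H4C15 had between 4 and 47 in total. SK-UT-1B, derived from a tumor of the uterus, had 2 libraries after DMSO (4-1 and 4-2) and 2 after MK-0752, gemcitabine, and docetaxel together (3-1 and 3-3). SK-LMS-1, derived from a vulvar metastasis, had 2 libraries treated with MK-0752 alone (2-2 and 2-3), 2 treated with the combination (4-1 and 4-2), and 4 treated with DMSO, which are DMSO set 2 (2-1 and 2-3) and DMSO set 4 (4-1 and 4-2). Each exposure lasted 72 h and used concentrations that the labels give as the IC30, with MK-0752 at a lower concentration in the combination than alone. Both lines are wild type by their labels. MK-0752 inhibits gamma secretase, the protease that releases the active fragment of Notch receptors, gemcitabine is a cytidine analog that stops DNA synthesis, and docetaxel stabilizes microtubules.

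Histones H2A, H2B, H3 and H4 form the core of the nucleosome, and H1 binds the DNA that enters and leaves it. Replication-dependent histone genes are transcribed mainly in S phase, when new DNA needs new nucleosomes, and their level is commonly read as a measure of DNA replication. Their mRNA has no introns and no poly(A) tail but ends after a short stem-loop that is bound by SLBP, the stem-loop binding protein. The libraries were made from total RNA after ribosomal RNA depletion, so that transcripts without a poly(A) tail could be sequenced. In bulk RNA, the share of cells in S phase and the histone RNA in each such cell cannot be told apart. By flow cytometry, the study reported a larger share of cells in S phase after each treatment sequenced here than after DMSO.

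The stem-loop was found where it belongs in most of the genes. In GENCODE v44 on hg38, 57 of the 59 genes have an entry (H2AC18 and H2AC19 do not). Of these, 50 lie on chromosome 6 and 7 on chromosome 1. All 57 have a single exon in the transcript used here, which need not cover the whole annotated gene. Within 150 bases after the coding end, 42 matched the sequence shown here for H1-2 exactly, with any base allowed as the last of the loop, 4 had 1 mismatch and 10 had 2, all of the last in H4 genes, and H4C13 had 3 or more. The matches began 23 to 63 bases after the stop codon. Those of genes that carry the results below are shown 5′ to 3′, with the stem in capitals and the loop in lower case. They were read from the genome. Whether the counted RNA ended there was not examined.
H1-2, chr6:26055744-26055759, minus strand: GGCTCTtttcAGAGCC
H1-5, chr6:27866797-27866812, minus strand: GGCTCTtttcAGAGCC
H2BC5, chr6:26158587-26158602, plus strand: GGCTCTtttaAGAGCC
H3C8, chr6:26270923-26270938, minus strand: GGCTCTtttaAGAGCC
H4C4, chr6:26188715-26188730, minus strand: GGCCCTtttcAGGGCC

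The families share promoter letters that the choice of genes did not use. The 200 bases upstream of the start were available from RefSeq (GRCh38.p14) for 52 of the 59 genes and for 35116 promoters in all, and both strands were searched. CCAAT, the core of the box bound by NF-Y, was present in 46 of 52 histone promoters (88.5%) and in 28% of all promoters. All H1, H2A, H2B and H3 promoters held it, whereas 3 of 9 H4 promoters did. TATAAA was found in 59.6% of the histone promoters and 8.59% of all promoters. ATTTGCAT, the octamer bound by POU2F1, was in 13 of 16 H2B promoters, 5 of 11 H2A promoters and none of the H1, H3 and H4 promoters, and in 1.31% of all promoters. Of these H2A genes, H2AC6, H2AC8, H2AC17 and H2AC20 run apart from an H2B gene with the octamer, with 232 to 245 bases between starts. The windows of such a pair overlap and can hold the same octamer. Paired genes are counted separately here and below. AAACACA, the H1 box, was in 6 of 6 H1 promoters and no other histone promoter (3.76% of all promoters), and GGTCCG was in 9 of 9 H4 promoters (7.71% of all promoters). A match of letters is a description and not a binding site. An example of each of 4 families is shown 5′ to 3′ with the matched letters of these motifs, on either strand, in capitals.
H1-5, chr6:27867589-27867788, minus strand, AAACACA and CCAAT: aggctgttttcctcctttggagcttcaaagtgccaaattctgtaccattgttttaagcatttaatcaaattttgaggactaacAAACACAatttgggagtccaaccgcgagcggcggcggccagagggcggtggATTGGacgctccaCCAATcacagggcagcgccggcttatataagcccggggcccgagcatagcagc
H2BC18, chr1:149812371-149812570, minus strand, CCAAT and ATTTGCAT: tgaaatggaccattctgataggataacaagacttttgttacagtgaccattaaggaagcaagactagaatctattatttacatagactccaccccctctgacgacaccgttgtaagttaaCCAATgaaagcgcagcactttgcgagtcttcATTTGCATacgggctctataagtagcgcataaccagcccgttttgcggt
H3C8, chr6:26271414-26271613, minus strand, CCAAT: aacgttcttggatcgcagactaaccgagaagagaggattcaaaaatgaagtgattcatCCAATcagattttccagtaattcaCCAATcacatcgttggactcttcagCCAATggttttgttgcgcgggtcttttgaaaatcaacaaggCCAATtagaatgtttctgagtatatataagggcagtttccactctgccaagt
H4C4, chr6:26189113-26189312, minus strand, GGTCCG and TATAAA: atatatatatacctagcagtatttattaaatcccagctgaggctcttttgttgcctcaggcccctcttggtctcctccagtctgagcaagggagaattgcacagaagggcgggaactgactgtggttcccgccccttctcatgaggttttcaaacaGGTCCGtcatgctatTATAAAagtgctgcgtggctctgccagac

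The libraries held 25250057 to 40709885 counts, and a count of 3, taken as the floor, corresponded to a CPM (a count scaled to library size by TMM) of 0.0777 to 0.123. The labels do not say that libraries of a group came from separate cultures, so the p-values below measure the spread between these libraries alone. In every group some genes (54 to 845) were absent from 1 library but had 50 counts or more in its partner, and none of the 59 histone genes did. Of 9 tested smooth muscle markers, 7 were called higher in SK-LMS-1 and 1 was called lower (17% and 14.1% of all genes tested). DES had 0 counts in SK-LMS-1, MYOCD had 0 in SK-UT-1B, and MYH11 lay between 0 and 0.150 CPM in every library, so these defining markers of smooth muscle were at or near 0 in at least one line. Of 4 tested epithelial markers, 3 were called higher in SK-LMS-1 and 0 lower. KRT8 lay between 86.99 and 109 CPM in SK-LMS-1 and at 0 in SK-UT-1B, KRT18 between 64.3 and 144 and between 0.212 and 1.14 CPM, and KRT19 between 5.85 and 15.1 and between 0 and 0.737 CPM, respectively. The defining markers EPCAM and CDH1 were at most 1.04 and 0.0795 CPM, and the blood markers PTPRC, CD3E and HBB at most 1.32 CPM. Of the endothelial markers, PECAM1 lay between 1.46 and 7.93 CPM and CDH5 between 0 and 2.11 CPM in SK-LMS-1, and both were at 0 in SK-UT-1B. The part of these markers in the histone differences between the lines was not tested. HES1, HEY1 and NRARP, which are Notch targets, had a log2FC under 0 in all treatment comparisons, and HES1 passed the test in SK-LMS-1 after MK-0752 (log2FC -2.76, edgeR adjusted p = 0.0153) and after the combination (log2FC -3.37, edgeR adjusted p = 0.0227) but not in SK-UT-1B (log2FC -1.70, edgeR adjusted p = 0.141). A gene was called where edgeR's quasi-likelihood test gave an adjusted p under 0.05 and the log2FC was 1 or more in size.

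Histone transcripts were several-fold more abundant in SK-UT-1B than in SK-LMS-1, and their sum was lower after the combination in SK-UT-1B and after MK-0752 in SK-LMS-1. Summed over the 59 genes, the level after DMSO was 7560.2 and 7445 CPM in the SK-UT-1B libraries 4-1 and 4-2. In SK-LMS-1 DMSO set 2 had 1988 and 2398 CPM and DMSO set 4 had 2775 and 2344 CPM. The sums of the lines did not overlap, and the mean was 3.16-fold higher in SK-UT-1B (7503 ± 81.5 CPM, SD, n = 2) than in SK-LMS-1 (2376 ± 322 CPM, SD, n = 4). After the combination, SK-UT-1B had 4434 and 4558 CPM, which was 1.67-fold lower than after DMSO. In SK-LMS-1, the sum was 1605 and 1607 CPM after MK-0752, 1.37-fold lower than in DMSO set 2, and 2312 and 2191 CPM after the combination, 1.14-fold lower than in DMSO set 4. Both MK-0752 libraries lay below all other SK-LMS-1 libraries, while the combination libraries of SK-LMS-1 lay below DMSO set 4 but within the range of DMSO set 2. After the combination, the sum was still 2.00-fold higher in SK-UT-1B. These sums are described without a test.

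**Figure D1:**
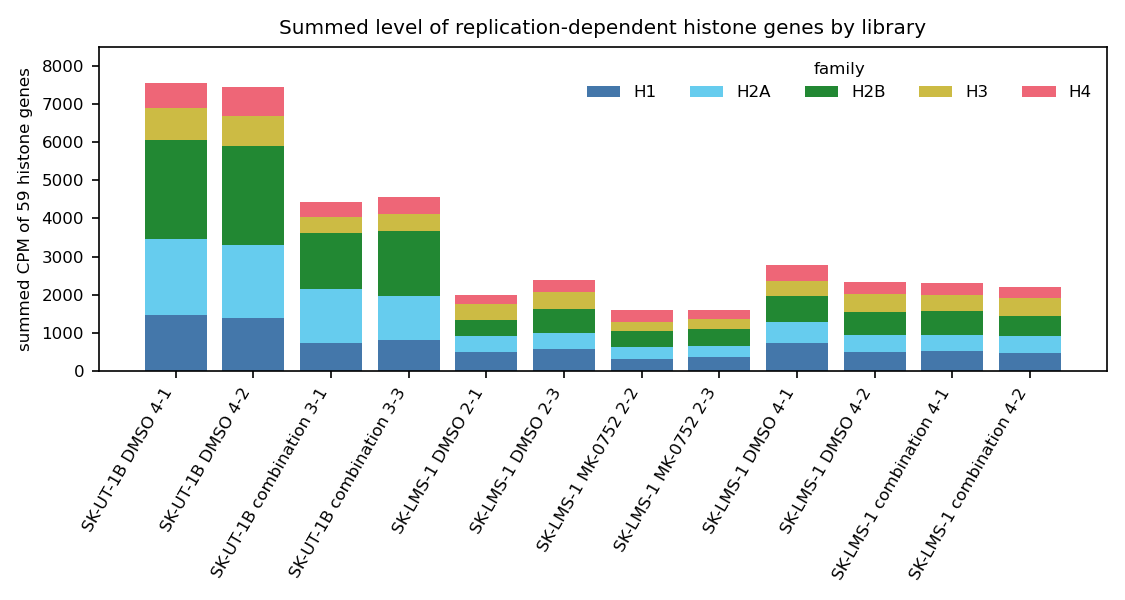
Summed CPM of the 59 replication-dependent histone genes in each of the 12 libraries (vertical axis from 0), split by family (colors). The SK-UT-1B DMSO libraries reach 7560.2 and 7445 CPM and the SK-UT-1B combination libraries 4434 and 4558 CPM, and the MK-0752 libraries are the lowest with 1605 and 1607 CPM.

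Each family was lower after the combination in SK-UT-1B, by 1.51-fold in the sum of H2A genes to 1.86-fold in the sum of H1 genes. The H1 sum was 1431 ± 55.7 CPM after DMSO and 768 ± 43.6 CPM after the combination, and the H3 sum was 808 ± 57.9 and 439 ± 25.2 CPM (SD, n = 2). After MK-0752 in SK-LMS-1, the sums differed more between families. The H3 sum was 437 ± 22.7 CPM in DMSO set 2 and 245 ± 6.16 CPM after MK-0752, 1.79-fold lower, and the H1 sum was 1.57-fold lower. The H4 sum was 273 ± 59.1 and 281 ± 49.4 CPM, a difference well within the spread between libraries, whereas DMSO set 4 had 366 ± 71.9 CPM. Of the 11 H4 genes, 8 had a log2FC below 0 relative to DMSO set 2 (72.7%, compared to 45.8% of all genes tested). The other 3, which include H4C5, were above 0, and the H4 median was -0.36. After the combination in SK-LMS-1, the H3 sum was 434 ± 18.3 CPM compared to 429 ± 60.2 CPM in DMSO set 4.

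By the mean of the DMSO libraries, H1-2, H2AC20, H2BC4 and H3C2 led their families in SK-UT-1B, and all were lower in SK-LMS-1. H1-4 was above H1-2 in DMSO library 4-2, and H2BC21 was above H2BC4 in DMSO library 4-1. H1-2, a linker histone, had 812 and 674 CPM in the SK-UT-1B DMSO libraries and 156, 179.6, 203 and 144 CPM in DMSO libraries 2-1, 2-3, 4-1 and 4-2 of SK-LMS-1. H3C2, a core histone H3 gene, had 603 and 547 CPM in SK-UT-1B and 91.8, 93.8, 83.8 and 83.2 CPM in SK-LMS-1. H2BC4, a core histone H2B gene that overlaps H4C3 on the other strand, had 631 and 591 CPM in SK-UT-1B and 79.97, 92.0, 96.1 and 83.1 CPM in SK-LMS-1. All 3 genes were lower in SK-LMS-1 in every library, with log2FC of -2.12 (SE 0.14), -2.71 (SE 0.12) and -2.80 (SE 0.16), respectively, and edgeR adjusted p from 3.95e-13 to 1.79e-10. The H2A genes H2AC6 and H2AC20 had 538 and 445 CPM and 672 and 612 CPM in SK-UT-1B, respectively. In the 4 DMSO libraries of SK-LMS-1, H2AC6 had 118, 129, 139 and 128 CPM, and H2AC20 had 44.3, 44.5, 59.4 and 42.3 CPM. H2AC6 was thus 3.84-fold and H2AC20 13.5-fold lower in SK-LMS-1, in every library (edgeR adjusted p = 9.17e-10 and 4.76e-14). H2AC11 had 356 and 401 CPM in SK-UT-1B and 77.1, 74.7, 108 and 70.7 CPM in SK-LMS-1, without overlap. The H1 gene H1-4 had 651 and 709 CPM in SK-UT-1B and 46.8, 88.5, 211 and 65.2 CPM in SK-LMS-1, where library 4-1 stood above the others. H3C1 had 100.04 and 88.7 CPM in SK-UT-1B and 16.6, 21, 29.5 and 34.9 CPM in SK-LMS-1. The H4 genes differed among themselves. H4C2 had 274 and 266 CPM in SK-UT-1B and 40.9, 51.7, 41.1 and 70.7 CPM in SK-LMS-1. H4C4 had 138 and 125 CPM in SK-UT-1B and 64.3, 72.5, 64.6 and 71.9 CPM in SK-LMS-1. H4C5 had 66 and 118 CPM in SK-UT-1B and 45.3, 64.6, 156 and 72.0 CPM in SK-LMS-1, so that the lines overlapped for this gene (log2FC -0.22, SE 0.34, edgeR adjusted p = 0.672).

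The higher sum in SK-UT-1B did not hold gene by gene. After DMSO, 25 histone genes were called lower in SK-LMS-1 (42.4%, compared to 14.1% of all genes tested) and 23 were called higher (39%, compared to 17%). Calls in both directions occurred in each family, with 3 of 6 H1, 4 of 14 H2A, 7 of 16 H2B, 6 of 12 H3 and 3 of 11 H4 genes higher in SK-LMS-1. The libraries of the lines did not overlap for 31 genes that were lower in SK-LMS-1 (26.6% of all genes) and 23 that were higher (25.3% of all genes). Per kilobase of transcript, the 5 highest genes made up 41.8% of the summed level in SK-UT-1B and 26.2% in SK-LMS-1, and the 20 highest made up 93.0% and 71.1%. H2BC21 was scaled by a transcript of 2224 bases that runs on past its stem-loop. Its level per kilobase would be higher for a transcript that ends there, so these shares depend on that length.

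A set of histone genes was at or near 0 in SK-UT-1B. H1-5, H2AC13, H2AC14, H2BC9, H2BC10, H3C7, H3C8, H3C11, H4C6 and H4C13 were at 0 in each of the 4 libraries of SK-UT-1B, and H3C10 had 3 counts in library 3-1 alone. In the 8 SK-LMS-1 libraries, the same 11 genes had at least 63 counts each. H1-5, a linker histone, had 188, 211, 238 and 189 CPM in the DMSO libraries 2-1, 2-3, 4-1 and 4-2. By the mean of these libraries, though not in each, it was the most abundant histone gene per length in SK-LMS-1 (259 ± 29.5 CPM per kilobase, SD, n = 4). Its level in SK-LMS-1 was at least 2252-fold higher, with the floor of 3 counts in each SK-UT-1B library. H3C8 had 76.1, 62.6, 52.4 and 66.5 CPM in these libraries and was at least 702-fold higher. H3C7 had 38.7, 50.6, 47.7 and 56.5 CPM, at least 528-fold higher, and H3C10 had 32.1, 41.5, 25.2 and 41.4 CPM, at least 382-fold higher. All 4 genes were called by edgeR's test, with adjusted p from 5.92e-15 to 1.60e-10. The other 7 were at least 45.0-fold (H2AC14) to at least 311-fold (H2BC10) higher. In the same order of DMSO libraries, H2AC13 had 13.8, 14.2, 25.5 and 17.3 CPM and H2AC14 had 7.27, 2.28, 4.66 and 2.28 CPM. H2BC9 had 10.03, 36.4, 34.1 and 26.4 CPM, and H2BC10 had 15.2, 29.7, 40.6 and 28.4 CPM. H3C11 had 13.9, 27.3, 23.1 and 20.96 CPM. These 5 genes were thus above the floor in each DMSO library of SK-LMS-1, and so were both H4 genes. H4C6 had 23.9, 23.7, 35.04 and 26.7 CPM, and H4C13 had 7.13, 12.8, 7.34 and 10.9 CPM. H2AC13 and H2AC14 share 61.3% and 64.2% of their 75-base windows, the read length, with other genes, so that their counts are less certain, and the other 9 share none. H3C3 and H2BC8 came close to this pattern. H3C3 had 0.0346 and 0.239 CPM in the SK-UT-1B DMSO libraries and 107, 109, 97.2 and 133 CPM in SK-LMS-1. H2BC8 had 0 counts in 3 of the SK-UT-1B libraries and 0.628 CPM in combination library 3-1, compared to 19.4, 40.7, 38 and 29.9 CPM in SK-LMS-1 after DMSO.

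Fewer genes showed the opposite pattern, and at low levels. H1-6, the testis linker histone, had 20, 66, 197 and 17 counts in the SK-UT-1B libraries 4-1, 4-2, 3-1 and 3-3 and 0 in all 8 SK-LMS-1 libraries, at least 12.4-fold lower after DMSO. In the annotation H1-6 overlaps H2BC4 on the same strand, and H2AC17 overlaps H3C12, so that counts of these genes could be shared. H2AC17 had 75, 18, 34 and 0 counts in SK-UT-1B and 0 in SK-LMS-1, and it was called in 4 of 10 alternative settings. H2AC19 had 6, 46, 54 and 4 counts and H3C15 had 56, 31, 17 and 18 counts in the same SK-UT-1B libraries. Both had at most 3 counts in each SK-LMS-1 library, and all windows of H3C15 are shared with other genes. In CPM, the differences in this direction were larger for H2BC18, H3C13 and H2BC21, which SK-LMS-1 also expressed. H2BC18 had 238 and 273 CPM in SK-UT-1B and 14.8, 12.7, 8.27 and 7.28 CPM after DMSO in SK-LMS-1, a log2FC of -4.63 (SE 0.19, edgeR adjusted p = 9.36e-14). H3C13, beside it on chromosome 1, had 127 and 108 CPM in SK-UT-1B and 3.75, 3.01, 3.04 and 1.06 CPM in SK-LMS-1, a log2FC of -5.50 (SE 0.34, edgeR adjusted p = 5.83e-10). H2BC18 and H3C13 share 59.3% and 63.0% of their windows with other genes, including pseudogenes. H2BC21, which shares 4.88%, had 655 and 534 CPM in SK-UT-1B and 36.6, 56.6, 37.7 and 39.3 CPM in SK-LMS-1 (log2FC -3.81, SE 0.17, edgeR adjusted p = 3.18e-13).

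Many of the genes low in one line lay next to each other. The histone genes sit in a block on chromosome 1 (149811879 to 149887965) and in blocks on chromosome 6 that start at 26017032, 27132316 and 27807479. With a difference of 10-fold in mean CPM after DMSO as the limit, chosen after the values were seen, 20 of the 57 located genes were low in SK-UT-1B, 9 were low in SK-LMS-1, and 28 were within 10-fold. Neighbors are meant among these located genes alone. H1-3, H4C6, H3C7, H2BC9, H3C8 and H2BC10 were 6 neighbors in a row that were low in SK-UT-1B, over 39.2 kb of chromosome 6 (26234212 to 26273412). H4C7, which was not kept because it had 0 counts in every library, lies between H4C6 and H3C7. H2BC13, H2AC13, H3C10, H2AC14 and H2BC14 were 5 such neighbors over 8.0 kb (27807479 to 27815489), and H2AC16, H1-5, H3C11 and H4C13 were 4 over 8.2 kb (27865317 to 27873534). H2BC3 with H3C3 and H2BC8 with H2AC8 were pairs of neighbors, and H1-1 stood alone. Of the 9 genes low in SK-LMS-1, H4C1, H1-6 and H2AC17 stood alone among genes within 10-fold. The block on chromosome 1 held 7 of the located genes, of which 6 were low in SK-LMS-1 and none in SK-UT-1B. H4C14 and H4C15, which were not kept, also lie in it, and H2AC18 and H2AC19 were not located. The block that starts at 27132316 held 5 of the located genes, all within 10-fold. Of 10 pairs of genes that start within 1000 bases of each other and run apart, 9 had both genes in the same class, 4 of them both low in SK-UT-1B. The exception was H2AC17 with H2BC17. Neighboring genes are not independent, and the runs are given without a test.

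**Figure D2:**
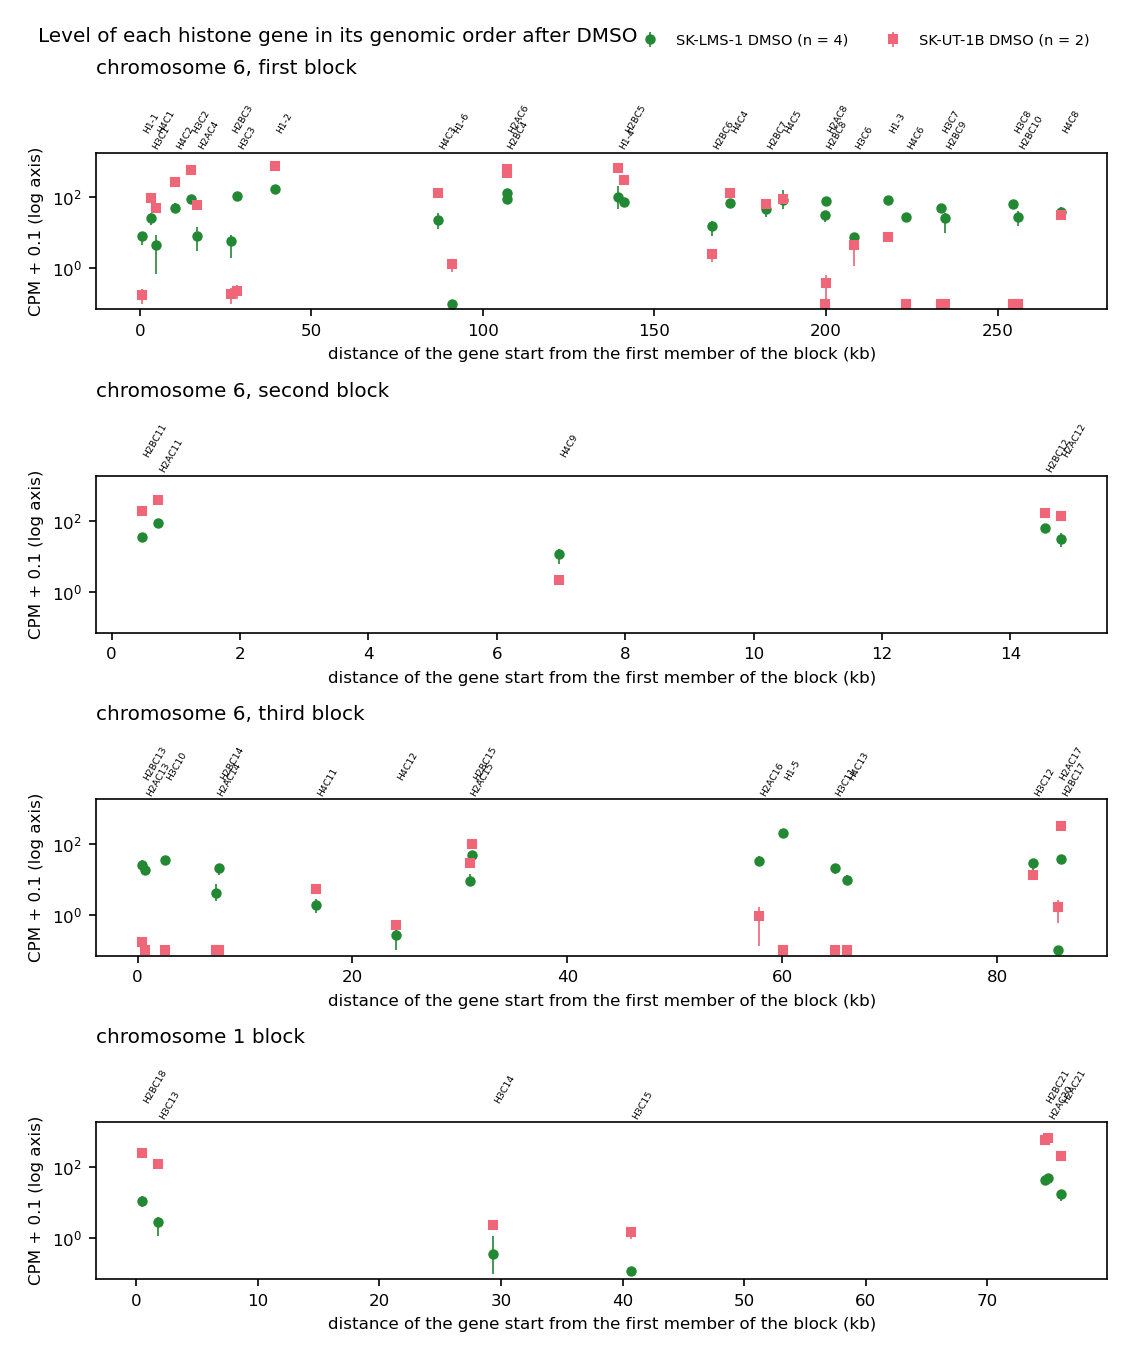
Mean CPM (log axis, with 0.1 added) of each histone gene after DMSO against the distance of its start from the first gene of its block in kb, for SK-LMS-1 (green circles, 4 libraries) and SK-UT-1B (red squares, 2 libraries), with vertical lines from the lowest to the highest library. Runs of neighbors, such as H4C6 to H2BC10, fall to the bottom of the axis in SK-UT-1B, and the genes of the chromosome 1 block are higher in SK-UT-1B.

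The classes were also compared after the combination. All 20 genes low in SK-UT-1B were also at least 10-fold lower there when the combination libraries of the lines were compared, while 3 of the 9 genes low in SK-LMS-1 met the limit. The other 6 were just under it or lower, from 6.41-fold (H3C15) to 9.66-fold (H2AC20). Of the 3, H3C13 was 33.6-fold higher in SK-UT-1B. In the SK-UT-1B combination libraries 3-1 and 3-3, H1-6 had 5.38 and 0.603 CPM and H2AC17 had 0.929 and 0 CPM, and both were at 0 in SK-LMS-1. With the MK-0752 libraries of SK-LMS-1 set against the combination libraries of SK-UT-1B, 18 of the 20 met it, and H1-1 and H1-3 did not. The 20 genes made up 34.1% to 40.2% of the summed CPM after DMSO in SK-LMS-1 and 0.0475% to 0.283% in the SK-UT-1B libraries. CCAAT was in 19 of 19 promoters of genes low in SK-UT-1B, 8 of 8 of genes low in SK-LMS-1 and 19 of 25 of genes within 10-fold. The promoters without it were all those of H4 genes, so these shares follow the families in each class. ATTTGCAT was in 6 of 19, 4 of 8 and 8 of 25, respectively.

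In SK-UT-1B, most of the expressed histone genes had lower values after the combination than after DMSO. Of the 59 genes, 2 were called lower (0.166% of all genes tested) and 0 were called higher (0.393% of all genes), and 3 genes had an unadjusted p under 0.05 in the upward direction with edgeR (5.41% of all genes), while DESeq2 called 1 higher and 5 lower. With 1 library left out, its group held 1 library. More histone genes were then called lower whichever library it was, and some were called higher without DMSO library 4-2. Shares of all genes are not given for these fits or for DESeq2, so their calls are no result about histone genes. Over all alternatives, the median log2FC of the histone genes ranged from -0.80 to -0.52. With all libraries, 25 genes (42.4%) had an edgeR unadjusted p under 0.05 in the downward direction, compared to 5.08% of all genes. The libraries did not overlap for 32 genes that were lower (54.2%, compared to 15.4% of all genes) and 2 that were higher (16.7% of all genes). Among the 34 genes whose mean count in this line was 50 or more, the median log2FC was -0.80 and 31 were below 0, compared to a median of 0 over all genes tested. The DMSO and combination libraries also differed in the first number of their labels (4 and 3), so the treatment and what that number stands for cannot be told apart.

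The called genes were both H2B genes. H2BC5 (ENSG00000158373.8, chr6:26158122-26158607) had 260.4 and 333 CPM after DMSO and 99.7 and 161 CPM after the combination, a log2FC of -1.18 (SE 0.24, edgeR adjusted p = 0.0362). H2BC18 (ENSG00000203814.6, chr1:149811879-149812370) had 238 and 273 CPM after DMSO and 116 and 136 CPM after the combination, a log2FC of -1.02 (SE 0.21, edgeR adjusted p = 0.0296). Neither gene overlapped between the groups. Neither was called with a minimum mean of 50 counts (edgeR adjusted p = 0.0564 and 0.0543) or with the libraries of the comparison alone in the model (edgeR adjusted p = 0.555 for both), nor without DMSO library 4-2 (log2FC -0.996 and -0.917) or without combination library 3-1 (log2FC -0.91 and -0.94). Another 4 genes had an adjusted p under 0.05 with a smaller change (6 in all, compared to 0.251% of all genes that were lower and 0.464% that were higher at this limit), and none overlapped between the groups. H3C2 (ENSG00000286522.2, chr6:26031589-26032099) fell from 603 and 547 CPM to 311 and 322 CPM (log2FC -0.86, SE 0.14, edgeR adjusted p = 0.00511). H4C4 fell from 138 and 125 CPM to 70.4 and 70.8 CPM (log2FC -0.90, SE 0.18, edgeR adjusted p = 0.0177). H1-2 fell from 812 and 674 CPM to 439.8 and 433 CPM (log2FC -0.77, SE 0.17, edgeR adjusted p = 0.0398). H2BC4 fell from 631 and 591 CPM to 321 and 368 CPM (log2FC -0.83, SE 0.19, edgeR adjusted p = 0.0454). The adjusted p under 0.05 thus came from H1, H2B, H3 and H4 genes, and no H2A gene had one.

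Other abundant genes were also lower after the combination without passing the test. H2AC20 had 537 and 441 CPM after the combination and H2AC6 had 405 and 281 CPM, both below their DMSO libraries (log2FC -0.39 and -0.52, edgeR adjusted p = 0.397 and 0.209). H2BC21 had 351 and 484 CPM and H2AC11 280.1 and 222 CPM, also below their DMSO libraries. The H1 gene H1-4 had 282 and 364 CPM, the H3 genes H3C1 and H3C13 had 37.3 and 56.1 CPM and 45.1 and 61.2 CPM, and the H4 genes H4C2 and H4C5 had 151 and 191 CPM and 52.0 and 46.8 CPM. None of these 9 genes had overlapping groups. The 3 genes with an unadjusted p under 0.05 in the upward direction, named here because of that, were H3C6, H2BC8 and H2BC14, and the last 2 had 0 counts in 3 of the 4 libraries.

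**Figure D3:**
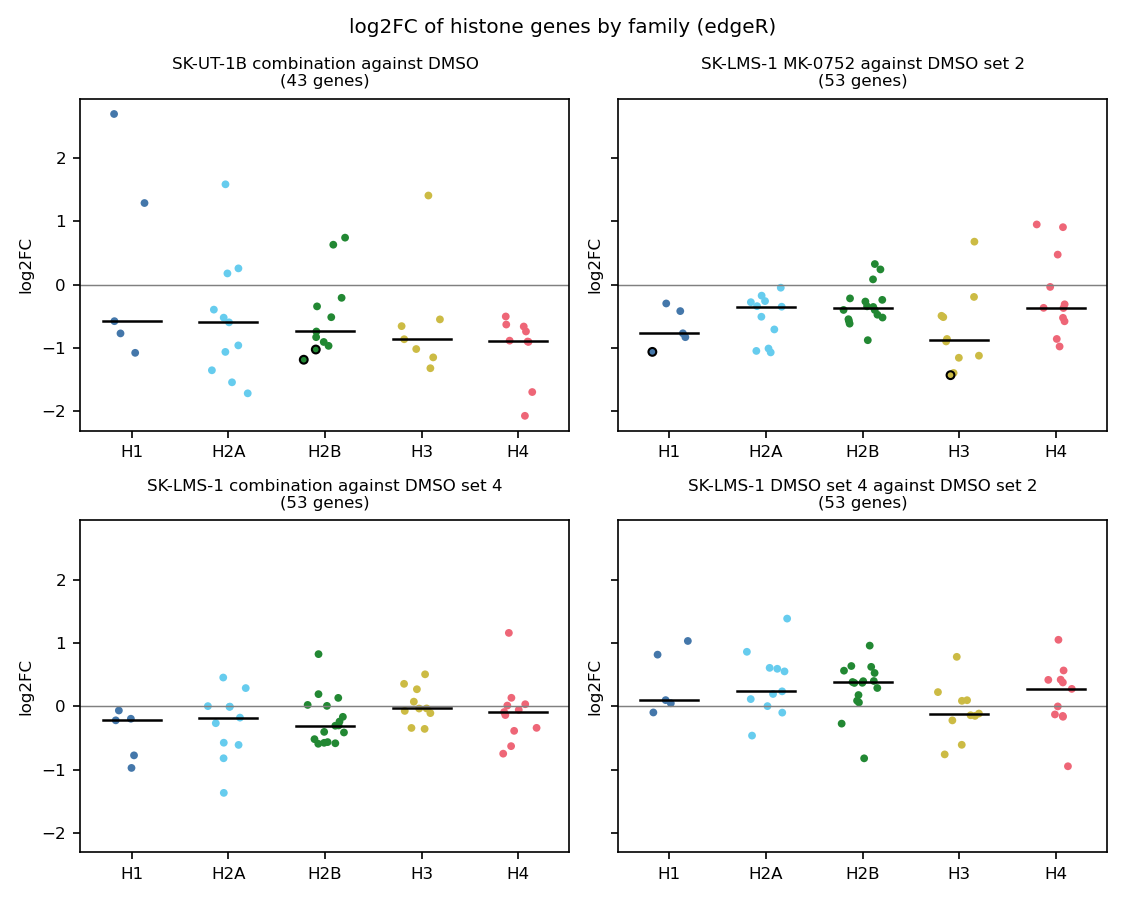
log2FC (vertical axis) of single histone genes by family in 4 comparisons, for the genes above 3 counts in both groups (number in each title), with the median of a family as a bar and the called genes ringed. After the combination in SK-UT-1B 35 of 43 genes lie below 0, after MK-0752 in SK-LMS-1 46 of 53, after the combination in SK-LMS-1 37 of 53, and between the DMSO sets 16 of 53.

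In SK-LMS-1, histone transcripts had lower values after MK-0752 alone, and H3C8, H1-5 and H3C2 passed the test. Relative to DMSO set 2, 2 histone genes were called lower (0.194% of all genes tested) and 0 higher (0.0568% of all genes), with 1 gene, H4C5, at an unadjusted p under 0.05 in the upward direction with edgeR (2.48% of all genes), and 12 genes (20.3%) were at an unadjusted p under 0.05 in the downward direction, compared to 3.94% of all genes. The libraries did not overlap for 32 genes that were lower (54.2%, compared to 17.5% of all genes) and 4 that were higher (16.9% of all genes). Among the 51 genes whose mean count in this line was 50 or more, 45 had a log2FC below 0 and the median was -0.42. Relative to DMSO set 4, 49 of the 51 were below 0 and the median was -0.71, so the direction held with either set of DMSO libraries.

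H3C8 (ENSG00000273983.1, chr6:26270918-26271413) had 76.1 and 62.6 CPM in DMSO set 2 and 26.1 and 25.5 CPM after MK-0752, a log2FC of -1.43 (SE 0.25, edgeR adjusted p = 0.0148). H1-5 (ENSG00000184357.5, chr6:27866792-27867588) had 188 and 211 CPM in DMSO set 2 and 86.3 and 105 CPM after MK-0752, a log2FC of -1.06 (SE 0.18, edgeR adjusted p = 0.0145). For both genes the MK-0752 libraries lay below all 6 other SK-LMS-1 libraries, and both were also called relative to DMSO set 4 (log2FC -1.20 and -1.16, edgeR adjusted p = 0.0391 and 0.00626). H3C8 was not called without the DMSO library 2-1 (edgeR adjusted p = 0.0680), and H1-5 was not called without the MK-0752 library 2-2 (edgeR adjusted p = 0.0636) or, by its size, without the DMSO library 2-3 (log2FC -0.99). H3C2 fell from 91.8 and 93.8 CPM to 47.3 and 52.5 CPM (log2FC -0.89, SE 0.15, edgeR adjusted p = 0.00623), and these 3 genes were those with an adjusted p under 0.05 in the downward direction (0.279% of all genes). H3C3 had 63.8 and 56.0 CPM after MK-0752, H3C7 29.7 and 32.9 CPM, H3C10 13.0 and 20.1 CPM, and H3C1 14.1 and 12.7 CPM, each below both libraries of DMSO set 2. H4C4 had 45.2 and 46.6 CPM after MK-0752 and H4C2 had 37.3 and 34.6 CPM, also below both libraries. H4C5 had 131 and 81.8 CPM after MK-0752 and 45.3 and 64.6 CPM in DMSO set 2, but 156 and 72.0 CPM in DMSO set 4, with which it overlapped.

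The genes low in SK-UT-1B made up a smaller share of the histone transcripts after MK-0752. Their median log2FC was -0.74 (20 genes, 19 below 0), compared to -0.34 (25 genes, 20 below 0) for the genes within 10-fold and -0.54 (6 genes) for those low in SK-LMS-1. Relative to DMSO set 4, the medians were -0.81, -0.57 and -0.27. The summed CPM of the 20 genes reached 799 and 906 in the libraries of DMSO set 2 and 946 and 912 in those of set 4, whereas the MK-0752 libraries had 477 and 495. Their share of the histone CPM was 29.7% and 30.8% in the MK-0752 libraries and at least 34.1% in the other 6 SK-LMS-1 libraries. Classes and shares use the same DMSO libraries and were not tested against each other.

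**Figure D4:**
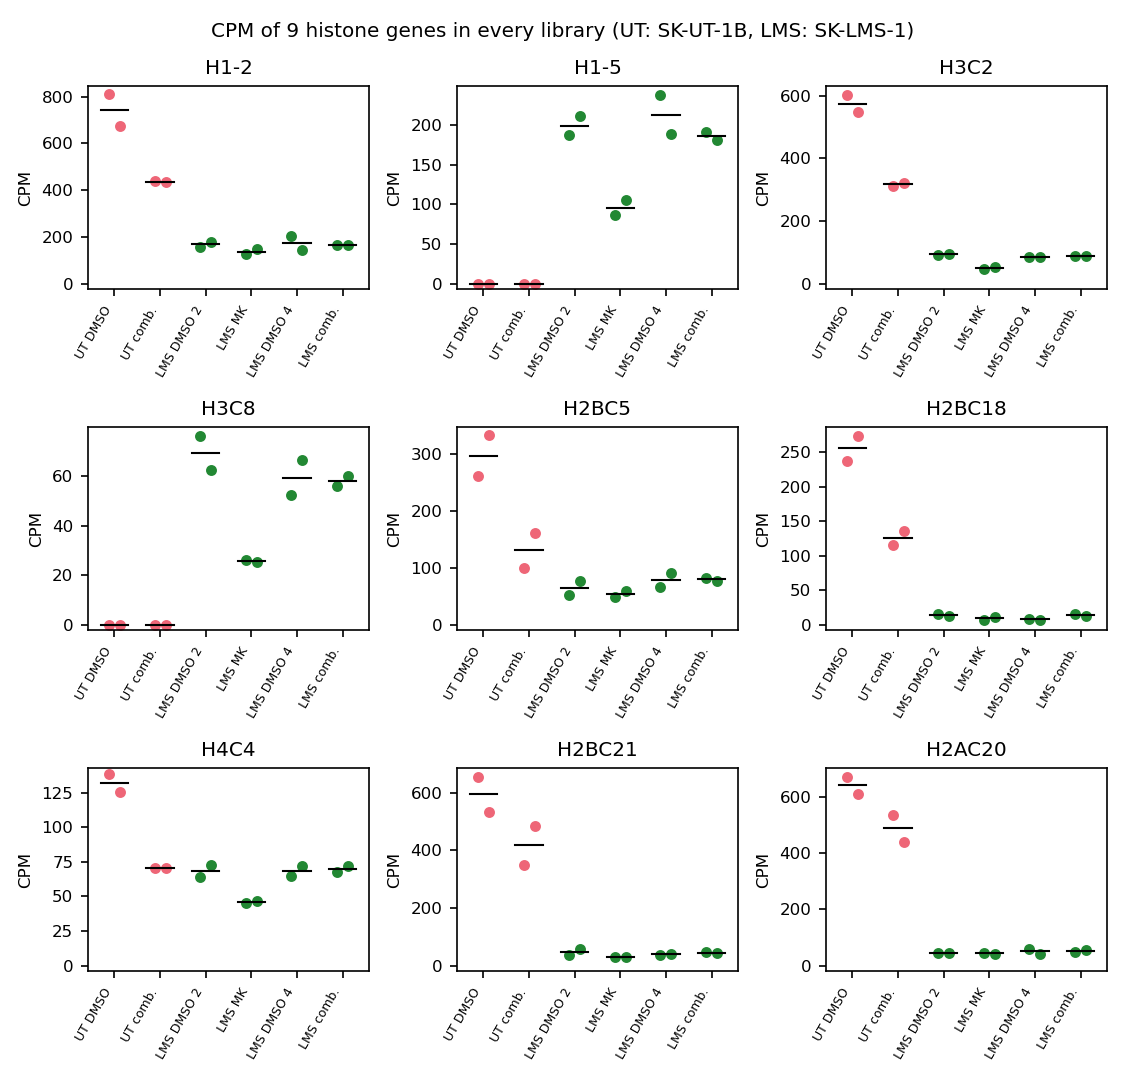
CPM (vertical axes from 0) of 9 histone genes in each library (points) with the mean of each group of 2 (bars), for SK-UT-1B (UT) and SK-LMS-1 (LMS). H1-5 and H3C8 have 0 counts in SK-UT-1B and are lowest after MK-0752 in SK-LMS-1, while H1-2, H3C2, H2BC5, H2BC18 and H4C4 are lower after the combination in SK-UT-1B.

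With all libraries, no histone gene passed the test in SK-LMS-1 after the combination. Relative to DMSO set 4, 0 histone genes were called in either direction by edgeR (0.00947% of all genes tested were lower and 0.0142% higher) and 0 by DESeq2. Some were called lower without DMSO library 4-2 or without combination library 4-1, each of which left 1 library in a group. An unadjusted p under 0.05 with edgeR was found for 5 genes that were lower (8.47%, compared to 1.16% of all genes) and 1 that was higher (1.69%, compared to 3.17%). The 5 were H2AC4, H2AC12, H2BC7, H2BC11 and H2BC17, with log2FC from -1.37 to -0.57, and the 1 was H2BC18, all named here because of that p. The libraries did not overlap for 13 genes that were lower (22%, compared to 11.4% of all genes) and 5 that were higher (21% of all genes). Among the same 51 genes, 36 were below 0 with a median log2FC of -0.17. Relative to DMSO set 2, 23 were below 0 and 28 above with a median of 0.02, so the lower values depended on the choice of DMSO set. H1-2 had 167 and 164 CPM after the combination, H1-5 had 191 and 181, H3C2 had 87.5 and 88.2, and H4C4 had 67.6 and 72.1. H3C8 had 55.8 and 60.2 CPM, H2BC4 had 105 and 76.8, and H2AC6 had 134 and 133. Each of these 7 genes overlapped with the range of the 4 DMSO libraries.

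The DMSO sets of SK-LMS-1 gave the size of differences that arose without any drug. Between set 4 and set 2, 0 histone genes were called by edgeR in either direction (0% of all genes tested), with 6 higher (10.2%, compared to 2.14% of all genes) and 2 lower (3.39%, compared to 3.53%) at an unadjusted p under 0.05, and 0 were called by DESeq2. With 1 library left out, its set held 1 library. Histone genes were then called higher in set 4 without library 4-2 or 2-3, and lower without library 4-1. Shares of all genes are not given for these fits, so their calls are no result about histone genes. The libraries did not overlap for 15 genes that were higher in set 4 (25.4%, compared to 12% of all genes) and 3 that were lower (17.5% of all genes). The median log2FC was 0.22 over the same 51 genes, and 36 were above 0. H4C5 and H1-4 were highest in library 4-1, which with 25585105 counts was the shallowest DMSO library of the line.

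The effect of the combination differed between the lines for H2BC18. The contrast of the effects called 1 histone gene (0.0853% of all genes tested), with the lower value in SK-UT-1B, and 0 in the other direction (0.147% of all genes), with 13 and 2 genes, respectively, at an unadjusted p under 0.05 (4.45% and 3.22% of all genes) and 0 in the other direction by DESeq2. With 1 library left out, its group held 1 library, and more histone genes were called lower whichever of the 8 libraries it was. Some were also called higher, most of them without SK-UT-1B DMSO library 4-2. Shares of all genes are not given for these fits. H2BC18 fell in SK-UT-1B, as given above, and in SK-LMS-1 it had 14.7 and 12.8 CPM after the combination compared to 8.27 and 7.28 CPM in DMSO set 4. The difference of the log2FC was -1.84 (SE 0.31, edgeR adjusted p = 0.0103). In DMSO set 2, H2BC18 had 14.8 and 12.7 CPM, and with this set as the control, an alternative chosen after the data were seen, the difference was -1.02 (edgeR adjusted p = 0.434) and was not called. H3C2 had the next smallest adjusted p of the 59 genes (difference -0.93, SE 0.20, edgeR adjusted p = 0.0736).

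Genes that act with the replication-dependent histones were compared as lists. In the list of 34 S phase genes, such as those for replication proteins and nucleotide synthesis, all 34 had a log2FC below 0 in SK-UT-1B after the combination (median -0.63) and in SK-LMS-1 after MK-0752 (median -0.38), and 28 were below 0 in SK-LMS-1 after the combination (median -0.15). RRM2, a subunit of ribonucleotide reductase, had an adjusted p under 0.05 in the first comparison (log2FC -0.90, edgeR adjusted p = 0.0139) and was called in the second (log2FC -1.17, edgeR adjusted p = 0.00226), and RRM1 was the only other gene of the list with an adjusted p under 0.05 (log2FC -0.89 in SK-UT-1B, edgeR adjusted p = 0.0417). The study's flow cytometry gave a larger S phase share after each of these treatments. The part of cell cycle changes in the histone values was not tested. The proliferation markers MKI67, TOP2A, CCNB1 and CDK1 all had a log2FC below 0 in each of the 3 treatment comparisons. After MK-0752, MKI67 had -0.91 (edgeR adjusted p = 0.00488) and CCNB1 was called at -1.09 (edgeR adjusted p = 0.0286), whereas with the combination in SK-UT-1B the 4 had -0.94 to -0.46 and did not pass the test. In the study's flow cytometry, Ki-67, the protein of MKI67, was lower after MK-0752 alone in SK-LMS-1. It did not change significantly after the combination in either line. Between the lines after DMSO, 27 of the 34 S phase genes were called lower in SK-LMS-1 and 0 higher (median log2FC -1.56), compared to 14.1% and 17% of all genes tested.

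No gene for histone transcript synthesis was called in a treatment comparison. At most 0.393% of all genes tested were called in either direction in these comparisons, so 0 calls in lists this short are no result about them. Of 25 genes for histone gene transcription and 3′ end processing, 24 were tested, with 0 calls by edgeR and medians of -0.22 (SK-UT-1B combination), -0.02 (MK-0752) and 0.07 (SK-LMS-1 combination). NPAT, the coactivator of histone genes, had log2FC of 0.09, 0.11 and 0.33 in these comparisons, and SLBP had -0.48, -0.34 and -0.02. After DMSO, 10 of the 24 were called lower in SK-LMS-1 and 0 higher, compared to 14.1% and 17% of all genes tested. SLBP was among them (log2FC -1.62, edgeR adjusted p = 4.82e-07), as was POU2F1 (log2FC -1.79, edgeR adjusted p = 1.12e-07), whereas NPAT had -0.16 (edgeR adjusted p = 0.454). Of 10 histone mRNA decay genes, 0 were called after treatment and 1 was lower in SK-LMS-1 after DMSO (14.1% of all genes tested). Of 22 histone chaperone and assembly genes, 0 were called after treatment and 10 were lower in SK-LMS-1 (14.1% of all genes tested). Among 11 tested genes of replication-independent histones, whose transcripts are made outside S phase as well, 0 were called after treatment, and medians were -0.46, 0.07 and -0.07. Between the lines, H2AZ1, H2AX, MACROH2A1, MACROH2A2 and CENPA were called lower in SK-LMS-1 and H2AJ was called higher (log2FC 3.28, edgeR adjusted p = 0.00101), compared to 14.1% and 17% of all genes tested.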

How the data were processed

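The authors deposited 1 table of raw counts per gene for all 12 libraries, from stranded total RNA after ribosomal RNA depletion. Per the labels and the study's methods, single-end reads were trimmed with Trim Galore 0.3.7 and aligned to hg38 with STAR 2.7.9a, and ribosomal reads were removed with SortMeRNA. The annotation, strand setting and treatment of duplicates behind the counts are not given in the sources used here. The members and lists were chosen with earlier results of these data known.

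Counts were tested in R 4.3.3 with edgeR 4.0.16 (TMM, filterByExpr, robust quasi-likelihood fit of 6 groups of 2 libraries). P-values were adjusted by Benjamini-Hochberg over 21114 genes, and a call needed an absolute log2FC of 1 and an adjusted p of 0.05. The script was tested on simulated data. Libraries of 25250057 to 40709885 counts limit precision for genes near 3 counts. Floors cover counting error only. Alternatives were DESeq2 1.42.0, its size factors, other filters, the compared libraries alone, other DMSO controls, each library left out, and a replicate block. With a library left out, its group held 1 library, so the spread in the test came from the other groups. The last number of the labels did not pair the libraries of DMSO set 4 and the combination in SK-LMS-1 (r = -0.0113 over 21114 genes).

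Genes with values per library were the 3 most abundant of each family, those called after treatment, the 5 highest and 5 lowest between the lines, and those with at most 3 counts in one line and at least 50 in a library of the other. Gene positions came from GENCODE 44, promoters from RefSeq GRCh38.p14, and shared 75-base windows from blastn 2.17.0. For the most abundant gene of each family, the 3 genes with the most similar levels were listed, and 1 of these lists is not reported here.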

Additional observations from a re-analysis of the deposited data

Results flagged for a closer look

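The effect of the combination on H2BC18 differed between the lines by the test of the difference itself. The log2FC in SK-UT-1B minus that in SK-LMS-1 was -1.84 (edgeR adjusted p = 0.0103). It lost its call with DMSO set 2 as the SK-LMS-1 control (-1.02, edgeR adjusted p = 0.434), and 59.3% of the 75-base windows of H2BC18 also occur in other genes. The part of shared reads in this difference was not tested.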

How the results depend on the processing

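None of the 15 results for single genes that were recomputed reversed its direction, but the median log2FC of the histone genes after the combination in SK-LMS-1 ranged from -0.22 to 0.02 and was above 0 with DMSO set 2 as the control. For the SK-UT-1B combination, DESeq2 called 1 histone gene higher and 5 lower, no filter gave 2 and 9, and 0 were lower with a minimum mean of 50 counts or with the compared libraries alone (41 genes tested). Leaving out libraries gave 0 to 5 higher and 3 to 13 lower. After MK-0752, leaving out libraries gave 0 to 2 higher and 2 to 3 lower. For the SK-LMS-1 combination it gave 0 higher and 0 to 3 lower, with 3 without DMSO library 4-2. Between the lines it gave 22 to 24 higher and 23 to 26 lower. For the difference of the effects, it gave 0 to 4 higher and 2 to 5 lower, no filter gave 2 and 4, and DMSO set 2 as the control, chosen after the data were seen, gave 0 lower. Between the DMSO sets, no filter gave 1 higher, and leaving out libraries gave 0 to 5 higher and 0 to 1 lower. Without TMM, the summed level after the combination was 0.630 of that after DMSO in SK-UT-1B, and SK-UT-1B exceeded SK-LMS-1 by 3.64-fold after DMSO and 2.47-fold after the combination. Without the highest gene of each family, the latter ratios were 2.60 and 1.68. Shares of all genes are not given for any of the alternative fits in this paragraph, DESeq2 and the fits without a filter included. Their counts show only how far the calls depend on the settings and on single libraries, and are no result about histone genes. The cause of these shifts was not tested. With the replicate block, the SK-LMS-1 combination had 0 calls and the difference of the effects 0 higher and 1 lower. No paired analysis was possible for the SK-UT-1B and MK-0752 comparisons because their groups share fewer than 2 replicate numbers. Low depth limits H1-6, H2AC17, H2AC19 and H3C15.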

Other observations

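The genes whose log2(CPM + 1) over the 12 libraries was most like that of the most abundant gene of a family were listed as a description. For H1-2 they were H2BC4 (Pearson's r = 0.991), H2AC11 (0.987) and EFTUD2 (0.987). For H2AC6 they were PHGDH (0.989), PRPF38A (0.988) and SP7 (0.986), and for H2BC4 they were H1-2 (0.991), SKP2 (0.990) and EI24 (0.987). For H4C2 they were MCM10 (0.991), TP53I11 (0.988) and SRSF7 (0.988). The libraries fall into the 2 lines, which these correlations share.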
